A study of Mus musculus with 16 samples.

Results

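The Nkx homeobox genes encode DNA-binding regulators of organ and neural tube formation, and 10 of them are described here by the histone mark H3K27me3 in mouse embryonic stem cells: Nkx2-1, Nkx2-2, Nkx2-3, Nkx2-4, Nkx2-5, Nkx2-9, Nkx3-2, Nkx6-1, Nkx6-2 and Nkx1-2. A peak of the deposited consensus set was given to a gene when it overlapped the gene's RefSeq span (GRCm38.p6, the same build as mm10) with 2 kb on either side. All 10 genes had such a peak, and were among 20257 protein-coding or lncRNA genes that did. They held 11 of the 102957 consensus peaks and made 10 of 18362 gene regions, a gene region being the summed counts of the peaks of 1 gene or of several genes with the same peaks.

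The series profiled H3K27me3 by ChIP-seq after doxycycline induction of Firre, a long non-coding RNA, on a Firre KO or a WT background. The groups were a Firre KO line with an inducible Firre transgene (KO transgene), a line labelled Firre KO without transgene (labelled KO control), a WT line with the inducible transgene (WT transgene) and a line labelled WT without it (labelled WT control). All 4 lines carried a doxycycline label, and each was taken at 48 h and at 0 h, with 1 H3K27me3 and 1 input library per line and time. Total counts over the consensus peaks ran between 10380781 and 14787938 in the 8 H3K27me3 libraries and between 3340654 and 6244333 in the 8 input libraries, and the lowest of each belonged to the labelled KO control line at 0 h.

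The Firre gene on chromosome X held 1 peak, and its input counts at 48 h and 0 h were 70 and 66 in KO transgene, 73 and 37 in the labelled KO control line, 104 and 89 in WT transgene, and 6 and 3 in the labelled WT control line. The H3K27me3 counts there were 177 and 164 in the labelled KO control line, against 0 and 1 in the labelled WT control line. In KO transgene they were 47 and 172, and in WT transgene 57 and 263. All these counts are raw and not scaled by library totals, which were lowest in the labelled KO control line at 0 h. Both control lines thus went against their labels: the line labelled KO held Firre sequence and the line labelled WT held next to none. An exchange of these labels was not tested, so both lines are called by their labels, and comparisons are given with and without each of them where a fit allowed. With the labels exchanged, KO against WT and background by transgene would change places, apart from a constant factor. Induction, time, transgene and the test over input, fitted on all lines, would set the same libraries against each other. A transgene line set against the control line of its labelled background would then be compared across backgrounds. The sources used here do not say whether each line is 1 clone or which promoter drives the transgene. No condition had a replicate, so tests compared sets of libraries across lines and times. In the fits for induction, time, background by transgene and pairs of lines the common dispersion was 9.77e-05, so those p-values mostly follow read depth. The p-values for background, transgene and over input, fitted on all lines, measure only the spread between these libraries, which may be technical. In bulk chromatin, fewer cells with the mark and less mark per cell cannot be told apart.

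H3K27me3 is laid down by Polycomb repressive complex 2 and, in embryonic stem cells, covers many developmental regulators that are silent or poised there. Genes of the NK homeobox class are classic examples: they are switched on in restricted regions of the embryo, many of them downstream of hedgehog or BMP signals. Nkx2-5 is the early cardiac member. Nkx2-1 is the member of lung, thyroid and ventral forebrain.

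The start sites of all 10 genes lay inside their own peak. RefSeq promoters (GRCm38.p6; 250 bases before to 50 bases after the start) were found for 10 of 10, and 5 are shown on the strand of the gene, with CG dinucleotides in capitals, since CG-rich starts are a known feature of Polycomb targets. Nkx2-5 (chr17:26841516-26841815, minus strand) has the fewest CG of the 10 and Nkx6-1 (chr5:101664662-101664961, minus strand) the most. Nkx2-1 (chr12:56536859-56537158, minus strand) has the widest peak of the 10. Nkx2-2 (chr2:147186353-147186652, minus strand) and Nkx1-2 (chr7:132599588-132599887, minus strand) are those with the letters CAAGTG on either strand.
Nkx2-5: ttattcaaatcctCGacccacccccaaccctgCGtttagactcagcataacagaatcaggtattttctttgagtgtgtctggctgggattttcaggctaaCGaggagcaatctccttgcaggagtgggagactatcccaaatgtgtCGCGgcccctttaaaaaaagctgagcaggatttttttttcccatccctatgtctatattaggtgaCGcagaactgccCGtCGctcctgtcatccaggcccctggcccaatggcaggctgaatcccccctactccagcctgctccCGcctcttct
Nkx2-1: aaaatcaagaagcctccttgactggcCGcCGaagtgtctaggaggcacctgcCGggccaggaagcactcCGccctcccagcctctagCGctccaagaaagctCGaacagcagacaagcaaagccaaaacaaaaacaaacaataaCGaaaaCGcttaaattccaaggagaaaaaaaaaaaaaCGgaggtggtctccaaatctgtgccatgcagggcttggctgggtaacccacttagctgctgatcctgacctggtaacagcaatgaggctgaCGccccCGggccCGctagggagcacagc
Nkx2-2: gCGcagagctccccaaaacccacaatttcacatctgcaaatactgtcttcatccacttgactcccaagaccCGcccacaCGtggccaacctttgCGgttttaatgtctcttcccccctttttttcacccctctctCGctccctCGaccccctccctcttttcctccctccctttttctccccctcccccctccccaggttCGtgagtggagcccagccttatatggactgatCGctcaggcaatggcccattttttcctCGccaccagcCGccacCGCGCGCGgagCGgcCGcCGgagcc
Nkx6-1: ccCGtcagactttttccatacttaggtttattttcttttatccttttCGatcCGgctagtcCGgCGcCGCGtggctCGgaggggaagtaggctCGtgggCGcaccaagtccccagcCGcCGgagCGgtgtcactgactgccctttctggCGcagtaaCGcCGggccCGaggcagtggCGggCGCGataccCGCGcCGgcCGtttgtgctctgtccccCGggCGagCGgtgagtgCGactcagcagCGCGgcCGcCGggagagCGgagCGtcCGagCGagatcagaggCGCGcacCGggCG
Nkx1-2: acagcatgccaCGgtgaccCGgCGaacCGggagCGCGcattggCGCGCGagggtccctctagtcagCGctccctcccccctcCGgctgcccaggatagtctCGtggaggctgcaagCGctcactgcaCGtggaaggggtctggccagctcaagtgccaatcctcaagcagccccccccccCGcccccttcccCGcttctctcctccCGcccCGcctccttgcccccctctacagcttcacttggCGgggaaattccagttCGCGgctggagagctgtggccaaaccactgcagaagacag

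The median Nkx promoter held 19 CG in 300 bases, against 7 over all 32851 promoters of the table, and its share of G and C was 63.3% against 52.7%. Single promoters ran from 9 CG at Nkx2-5 and 12 at Nkx2-1 through 15 at both Nkx2-3 and Nkx2-9, 17 at Nkx2-2, 21 at Nkx1-2, 25 at Nkx3-2 and 32 at Nkx6-2 to 38 at Nkx2-4 and 40 at Nkx6-1. The spread among the 10 was thus wide, and Nkx2-5 stood close to the median of all promoters. The core letters of the NK2 site, CAAGTG, occurred on either strand in 2 of 10 promoters, against 13.6% of all promoters. The letters TGGGTGGTC, a GLI site of the hedgehog pathway, occurred in 0 of 10, against 0.253% of all, and TTAATT, a core of homeodomain sites, in 0 of 10, against 11.3% of all. None of the 3 motifs contains another, and a match is a description of letters in this window only.

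**Figure D1:**
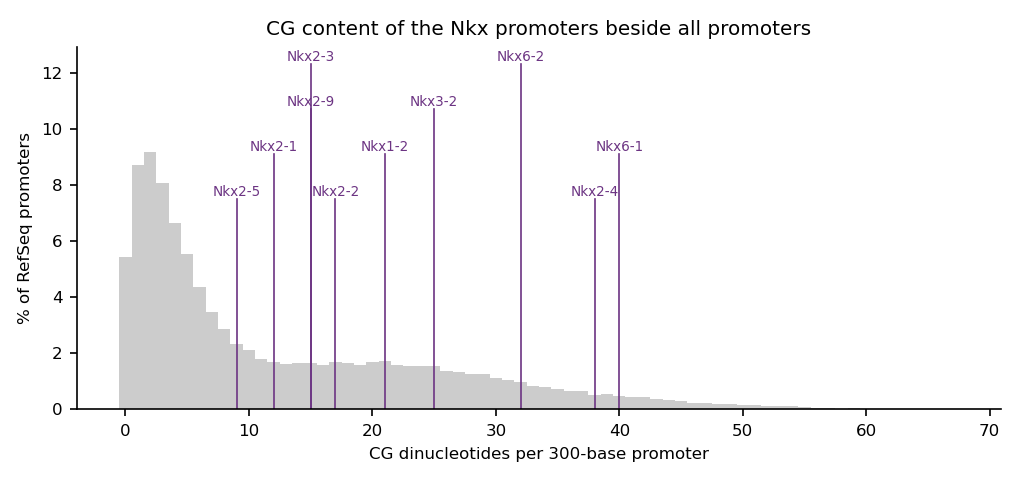
Share of all RefSeq promoters of 300 bases (y axis, %) by the number of CG dinucleotides they hold (x axis), with a vertical line at each Nkx gene; line heights only separate the names. The lines run from 9 CG at Nkx2-5 to 40 at Nkx6-1, all above the median of 7 over all promoters.

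H3K27me3 lay over most of the Nkx genes in broad single blocks. Of their 11 peaks, 7 were at least 30 kb wide, against 1.43% of all consensus peaks, whose median width was 2.36 kb. The peak caller's fold enrichment, the authors' value for each peak, was 3 or more at 6 of 11, against 0.320% of all peaks. Counts over input reached 1.5-fold at 9 of 11, against 2.2% of all. Peak coordinates are those of the deposited list, which does not say whether starts count from 0 or 1.

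Nkx2-5 lay in a peak of 32.1 kb (chr17:26836970-26869061) that reached 27.5 kb upstream and 4.60 kb downstream of the start, with a caller fold of 3.33. Nkx2-1 had the widest block, 71.7 kb (chr12:56480201-56551932), with 15.0 kb upstream and 56.7 kb downstream of the start. Nkx2-3, a gene of spleen and gut mesoderm, lay in 64.2 kb (chr19:43561328-43625551), of which 51.0 kb were upstream. The blocks were therefore placed differently around their starts: mostly upstream at Nkx2-5 and Nkx2-3, and mostly downstream at Nkx2-1.

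Among the genes of the ventral neural tube, Nkx2-2, which specifies ventral interneurons and is also needed in pancreatic beta cells, lay in 32.7 kb (chr2:147172810-147205461). Nkx2-9, expressed beside the floor plate, lay in 47.5 kb (chr12:56588671-56636154), and Nkx6-1, a gene of motor neuron progenitors and beta cells, in 39.3 kb (chr5:101636252-101675506). Nkx6-2, a gene of the neural tube and of myelinating cells, had 14.7 kb (chr7:139574350-139589095), a peak that also overlapped Inpp5a. Nkx2-4, a gene of the ventral forebrain related to Nkx2-1, had 12.6 kb (chr2:147081927-147094533).

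Nkx3-2, a gene of the axial skeleton, lay in 35.1 kb (chr5:41743244-41778360). Nkx1-2, a gene of caudal progenitors of the embryo, was the only one with a pair of peaks: 9.23 kb over the gene and its start (chr7:132590764-132599990), at 1.55 ± 0.197-fold over input (SD over 8 conditions), and 8.94 kb upstream of it (chr7:132601548-132610489), at 0.979 ± 0.148-fold. Its region value below joins both, so it is lower than that of the peak over the start. The whole gene span lay inside a single peak in all 10 genes.

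**Figure D2:**
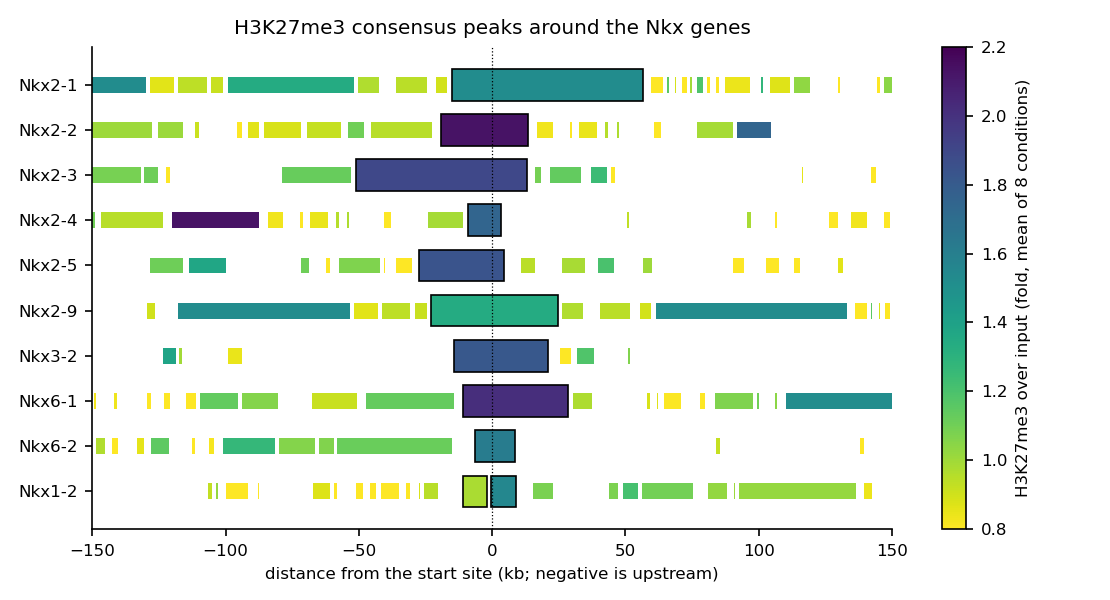
Consensus peaks within 150 kb of the start of each Nkx gene (x axis, distance in kb along the direction of transcription, cut at the plot's edges), coloured by mean H3K27me3 over input in 8 conditions; tall outlined bars are the gene's own peaks and low bars are neighbouring peaks. Own peaks are mostly darker than their neighbours, with Nkx2-1 the widest at 71.7 kb and the upstream peak of Nkx1-2 at 0.979-fold.

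Pairs of members lie near each other on chromosomes 2 and 12. The peaks of Nkx2-4 and Nkx2-2 were 78.3 kb apart, with 7 peaks between them whose median was 0.847-fold over input. The peaks of Nkx2-1 and Nkx2-9 were 36.7 kb apart, with 3 peaks between them at a median of 0.946-fold. In both pairs the members therefore stood as separate blocks with weaker peaks in between. Both pairs neighbour a Pax gene of the somites and pharyngeal pouches, and those carried blocks of their own: 35.8 kb at 1.71 ± 0.0554-fold at Pax1, and 64.5 kb at 1.53 ± 0.0885-fold at Pax9 (SD over 8 conditions). Within 150 kb of the 10 starts, the median neighbouring peak was between 0.890-fold (Nkx2-4) and 1.09-fold (Nkx2-3) over input.

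The level of the mark was read as H3K27me3 over input, the ratio of the 2 libraries' counts per total count. Since totals were taken within consensus peaks, a value of 1 stands for the mean consensus peak rather than for genomic background. Each ratio has a 95% exact binomial interval, which covers counting error alone, since copies made by PCR are not separate molecules. In all 8 conditions the median of the 10 members lay between 1.63-fold and 1.89-fold, against 0.965 to 0.985-fold for the median of all gene regions.

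Nkx2-2 was highest by mean, at 2.13 ± 0.262-fold (SD, n = 8 conditions; lowest 1.82, median 2.06, highest 2.72). The highest value came from the labelled KO control line at 0 h, where the input count was 179, the lowest of the 8 for this gene. Nkx6-1 followed at 2.02 ± 0.157-fold (lowest 1.79, median 2.02, highest 2.28). Nkx6-2 averaged 1.62 ± 0.220-fold (1.28, 1.59 and 2.00), with its highest value again in the labelled KO control line at 0 h. Nkx2-4 averaged 1.75 ± 0.121-fold (1.53, 1.75 and 1.89) and Nkx2-9 1.34 ± 0.0685-fold (1.21, 1.35 and 1.45). The genes of the ventral neural tube thus spanned nearly the whole range of the family.

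The cardiac gene Nkx2-5 averaged 1.84 ± 0.149-fold over input (SD, n = 8; lowest 1.54, median 1.84, highest 2.06). At 48 h and 0 h it was 1.85 and 1.87-fold in KO transgene, 1.78 and 1.83-fold in the labelled KO control line, 2.06 and 1.96-fold in WT transgene, and 1.54 and 1.81-fold in the labelled WT control line. Its lowest value, the labelled WT control line at 48 h, stood apart from the other 7 conditions, which lay between 1.78 and 2.06-fold.

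The lung, thyroid and forebrain gene Nkx2-1 averaged 1.52 ± 0.0480-fold over input (SD, n = 8; lowest 1.47, median 1.51, highest 1.6). At 48 h and 0 h it was 1.48 and 1.51-fold in KO transgene, 1.59 and 1.54-fold in the labelled KO control line, 1.51 and 1.6-fold in WT transgene, and 1.47 and 1.5-fold in the labelled WT control line. This was the smallest SD of the 10 members, at the gene with the widest peak. Nkx2-3 averaged 1.90 ± 0.118-fold (1.72, 1.89 and 2.06), Nkx3-2 1.82 ± 0.0876-fold (1.69, 1.81 and 1.95) and Nkx1-2, over both of its peaks, 1.28 ± 0.169-fold (1.09, 1.259 and 1.63).

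In the order of the means, neighbouring genes mostly did not differ beyond their spread, and 8 of 9 neighbouring pairs had overlapping ranges. The exception was Nkx2-1 over Nkx2-9, by 0.182 ± 0.0672-fold (SD of the 8 differences) and in 8 of 8 conditions. Nkx6-1 was above Nkx2-3 in 8 of 8 conditions by 0.122 ± 0.134-fold, with overlapping ranges. Nkx2-5 and Nkx3-2, next to each other, differed by 0.0181 ± 0.154-fold.

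**Figure D3:**
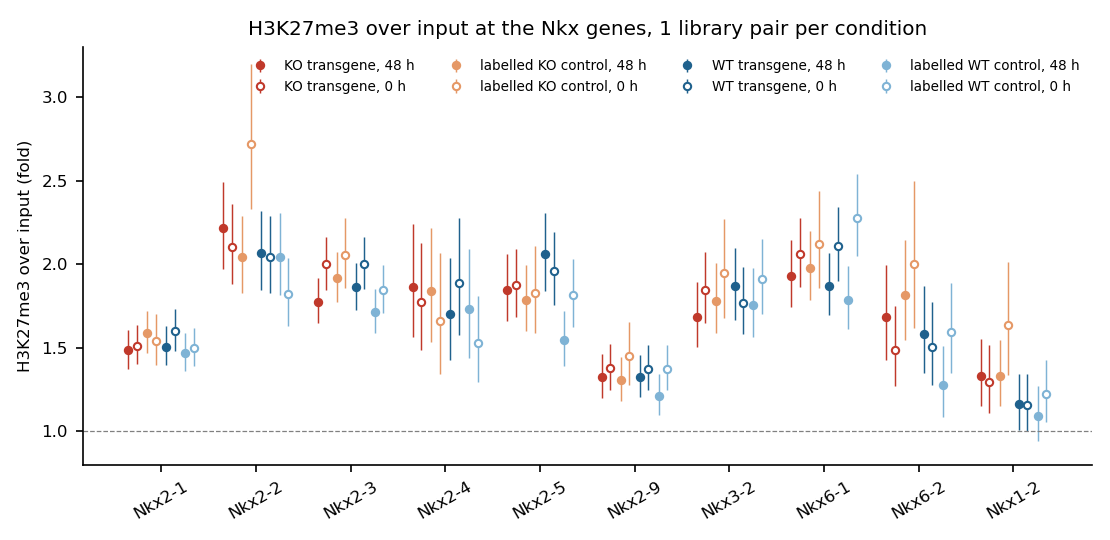
H3K27me3 over input (y axis, fold; dashed line at 1, the average over consensus peaks) for each Nkx gene in KO transgene, the labelled KO control line, WT transgene and the labelled WT control line, filled points at 48 h and open points at 0 h, with 95% exact binomial intervals. Values run from 1.09-fold at Nkx1-2 in the labelled WT control line at 48 h to 2.72-fold at Nkx2-2 in the labelled KO control line at 0 h.

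Tested against matched input with edgeR's quasi-likelihood test and Benjamini-Hochberg adjustment over all regions, 10 of 10 members were called higher and 0 lower, against 28.7% of all gene regions called higher and 37.5% called lower. The fitted differences, in log2 over input, ran from 0.33 ± 0.04 at Nkx1-2 (SE; adjusted p = 8.4e-09) to 1.07 ± 0.03 at Nkx2-2 (adjusted p = 6.6e-33). Nkx2-5 was at 0.87 ± 0.03 (adjusted p = 4.5e-30) and Nkx2-1 at 0.61 ± 0.02 (adjusted p = 8.8e-30). All 10 were called higher also without the libraries of the labelled KO control line, and without those of the labelled WT control line. Library sizes in this test were totals within consensus peaks, so a call higher or lower than input is relative to the mean consensus peak.

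Nkx1-1 and Nkx6-3, which are not among the members, had the mark as well. Nkx1-1 lay in 94.1 kb, wider than any of the 10 members, at 1.85 ± 0.117-fold over input. Nkx6-3 had 31.2 kb at 1.17 ± 0.0987-fold (SD, n = 8 each), below all 10 members by mean.

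Gene lists around the Nkx pathways put these levels beside other regulators. Of 33 other NK-like homeobox genes 32 had a peak, which made 29 regions, and 29 of 29 were called higher than input, with a median log2 difference of 0.76 against 0.83 for the 10 Nkx regions and -0.07 for all regions. Dlx4, Tlx3 and Hlx had the largest differences of that list, 1.00 ± 0.04, 0.97 ± 0.04 and 0.93 ± 0.03. Of the hedgehog and ventral neural tube list 16 of 19 regions were called higher, led by Lhx3 at 1.12 ± 0.04, a motor neuron factor, and Pax6 at 1.01 ± 0.03 and En1 at 0.90 ± 0.03. Calls higher numbered 12 of 14 among cardiac genes and 8 of 12 among lung and thyroid genes. Among pancreatic islet genes they numbered 12 of 15, and among genes of the axial skeleton and spleen 11 of 14. In the hedgehog and ventral neural tube list 0 regions were called lower, and in the cardiac list 1. The lung and thyroid, islet, and axial skeleton and spleen lists held 2 calls lower each.

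Genes that embryonic stem cells use were mostly outside the peaks: 3 of 20 pluripotency genes and 3 of 18 housekeeping genes had one. Over the genome 20257 protein-coding or lncRNA genes had a peak, and the number searched is not given here. Of the 3 pluripotency regions 1 was called higher than input, Esrrb at 0.39 ± 0.02, although Esrrb is a marker of these cells, and 1 lower. Of the 3 housekeeping regions 0 were called higher and 3 lower. A call lower places a region below the mean consensus peak and does not mean that the mark is absent.

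The first comparison of the study's design is induction: the change with doxycycline in the lines with the transgene minus that in the lines without it. At the Nkx genes no such difference was called. At Nkx2-5, H3K27me3 at 48 h over 0 h was 0.961 in KO transgene (95% interval 0.898 to 1.03) and 0.979 in WT transgene (0.914 to 1.05), against 0.917 in the labelled KO control line (0.851 to 0.988) and 0.958 in the labelled WT control line (0.892 to 1.03). At Nkx2-1 the same ratios were 0.943 and 0.968 in the KO and WT transgene lines, against 0.95 in the labelled KO control line and 0.940 in the labelled WT control line. At Nkx2-5 both ratios with the transgene were above both without it, by less than the intervals, and at Nkx2-1 the ratios overlapped.

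With edgeR's quasi-likelihood test, 0 members were called higher and 0 lower for induction, against 0.00545% and 0.0436% of all regions (1 and 8 regions). At an unadjusted p under 0.05, 514 regions were higher and 475 lower, none of them a member. The fitted log2 differences were 0.05 ± 0.05 at Nkx2-5 and 0.02 ± 0.04 at Nkx2-1, and ran between 0.0047 ± 0.06 at Nkx3-2 and 0.14 ± 0.08 at Nkx1-2. All 10 were above 0, and none reached the threshold (adjusted p from 0.927 to 0.997). That direction did not hold throughout: without the labelled KO control line Nkx2-2 (-0.04 ± 0.07), Nkx2-3 (-0.01 ± 0.05) and Nkx3-2 (-0.05 ± 0.07) were below 0, and 3 members were below 0 with input taken out in 1 model. Without the labelled WT control line all 10 were above 0. DESeq2 and limma-voom also called 0 members, as did edgeR without either control line.

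Time of doxycycline, regardless of transgene, was the second comparison. Nkx6-1, Nkx3-2, Nkx2-2, Nkx2-9 and Nkx2-1 were called lower at 48 h than at 0 h. The other 5, Nkx2-5 among them, did not pass the test, and no member was called higher. This makes 5 of 10 lower and 0 of 10 higher, against 1.49% of all regions lower and 0.474% higher (273 and 87 regions).

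At Nkx6-1, H3K27me3 in CPM per kb (counts scaled by each library's total, per kb of peak) was 3.73, 3.74, 3.82 and 3.46 at 48 h in KO transgene, the labelled KO control line, WT transgene and the labelled WT control line, against 4.09, 4.0, 3.96 and 3.92 at 0 h in the same lines. The groups did not overlap. The fitted log2 difference was -0.11 ± 0.03 (SE; edgeR adjusted p = 0.0012), lower in 4 of 4 lines, and the same contrast in input was 0.07 ± 0.05.

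At Nkx3-2 the values were 2.93, 2.99, 3.2 and 2.98 at 48 h, against 3.34, 3.39, 3.3 and 3.11 at 0 h, lines in the same order. WT transgene at 48 h lay above the labelled WT control line at 0 h, so the groups overlapped. The fitted log2 difference was -0.12 ± 0.03 (edgeR adjusted p = 0.0063), lower in 4 of 4 lines.

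At Nkx2-2 they were 3.84, 3.94, 3.78 and 3.5 at 48 h, against 4.0, 4.47, 4.14 and 3.63 at 0 h, and the groups overlapped through the labelled WT control line. Its log2 difference was -0.10 ± 0.03 (edgeR adjusted p = 0.013), and its input moved by -0.09 ± 0.06, nearly as far. At Nkx2-1 they were 2.88, 2.94, 2.97 and 2.82 at 48 h, against 3.06, 3.10, 3.07 and 3.00 at 0 h. The groups did not overlap, and the log2 difference was -0.07 ± 0.02 (edgeR adjusted p = 0.047). With a single library left out, Nkx2-1 was called in 0 of 8 fits. With line as block, leaving out 1 library also takes its line out of the time contrast, so both libraries of a line give in effect the same fit. Nkx2-9 had 2.45, 2.38, 2.59 and 2.33 at 48 h, against 2.59, 2.63, 2.64 and 2.57 at 0 h, with an overlap through WT transgene and a log2 difference of -0.09 ± 0.03 (edgeR adjusted p = 0.037).

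Nkx2-5 had 3.86, 3.69, 3.94 and 3.57 at 48 h, against 4.01, 4.02, 4.02 and 3.73 at 0 h, lines in the same order. It was lower at 48 h in each of 4 lines, but the groups overlapped and the log2 difference of -0.07 ± 0.03 did not pass the test (edgeR adjusted p = 0.226). Nkx2-3 was at -0.07 ± 0.02 (adjusted p = 0.0598), Nkx2-4 at -0.10 ± 0.04 (0.293), Nkx6-2 at -0.07 ± 0.04 (0.533) and Nkx1-2 at 0.0099 ± 0.04 (0.954).

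Line by line, the 48 h over 0 h ratio of H3K27me3 was below 1 at 8 of 10 members in KO transgene, 10 of 10 in the labelled KO control line, 9 of 10 in WT transgene and 10 of 10 in the labelled WT control line. The medians of the 10 ratios were 0.956, 0.922, 0.968 and 0.948 in that order of lines, against 0.995, 0.999, 1.00 and 1.00 for all regions. Input ratios had medians of 0.967, 1.00, 1.02 and 1.04 at the members, with 8, 5, 4 and 3 of 10 below 1. By gene, 8 of 10 members were below 1 in all 4 lines, Nkx2-4 in 3 and Nkx1-2 in 2.

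The time calls depended on the test and on how enrichment was treated. DESeq2 called 0 of 10 members, as did edgeR without line as block, and limma-voom called 6. Calls over all regions are not given for these settings, so the counts cannot be read as particular to the Nkx genes. With input taken out in 1 model 0 of 10 members were called, with larger SEs: Nkx6-1 was at -0.18 ± 0.06 and Nkx2-9 at -0.11 ± 0.05, both farther from 0 than before, while Nkx2-2 was at -0.02 ± 0.06 and Nkx2-1 at -0.03 ± 0.04 (edgeR adjusted p at least 0.339). Over all regions that model called only 4 lower and 1 higher. With an offset per library that follows the enrichment of the region over input, 0 of 10 members were called too. Under that offset the calls over all regions were 94 lower and 69 higher, Nkx6-1 was at -0.03 ± 0.02 (edgeR adjusted p = 0.615) and Nkx2-9 at -0.08 ± 0.03 (adjusted p = 0.146). Without both times of the labelled KO control line 1 of 10 was called lower, Nkx6-1 at -0.12 ± 0.03 (edgeR adjusted p = 0.0059), against 1.05% of all regions. Without those of the labelled WT control line 2 of 10 were, Nkx3-2 at -0.13 ± 0.03 (adjusted p = 0.0126) and Nkx2-2 at -0.12 ± 0.03 (adjusted p = 0.0193), against 0.882% of all regions. Leaving out any 1 of the 8 libraries left between 1 and 3 calls, but with line as block this amounts to leaving out the whole line. Nkx6-1 was lost without the labelled WT control line, whichever of its libraries was left out (edgeR adjusted p up to 0.11).

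**Figure D4:**
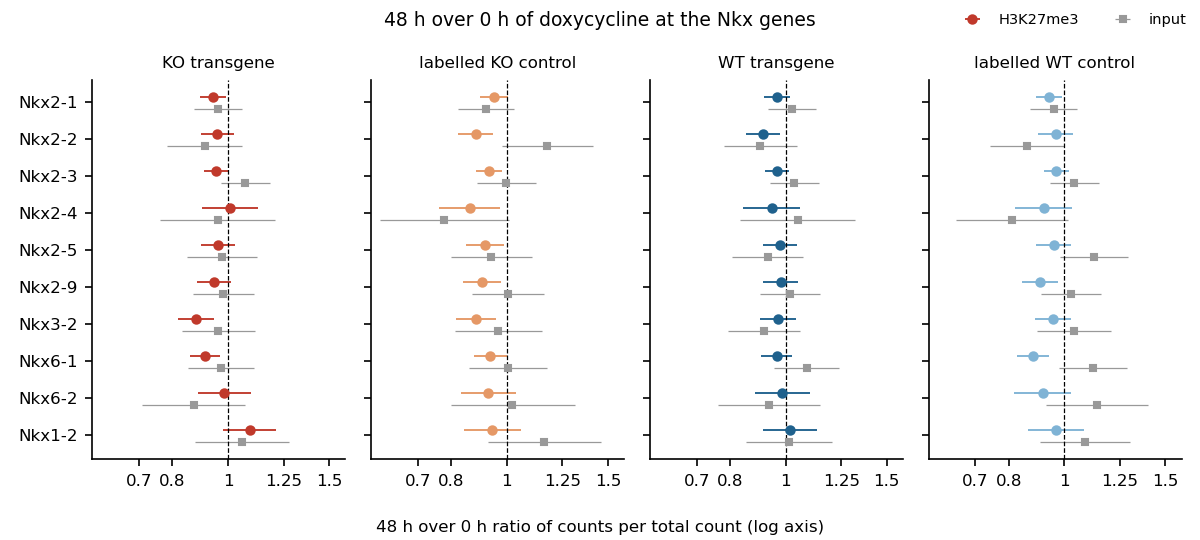
Ratio of counts per total count at 48 h over 0 h (x axis, log scale; dashed line at 1) for each Nkx gene in each line, coloured points for H3K27me3 and grey squares for input, with 95% exact binomial intervals. H3K27me3 points lie left of 1 at 8 to 10 of 10 genes per line, and input points fall on both sides.

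In the time contrast, 5 of the 29 other NK-like regions were called lower and 0 higher, led by Tlx3 at -0.16 ± 0.03, Barhl2 at -0.11 ± 0.02 and the region of Dlx5 and Dlx6 at -0.11 ± 0.02. Calls lower numbered 4 of 19 in the hedgehog and ventral neural list, 1 of 14 in the cardiac list (Hand2 at -0.09 ± 0.02), 3 of 12 in the lung and thyroid list, 4 of 15 in the islet list and 1 of 14 in the axial skeleton and spleen list. None of these 6 lists held a call higher. Their median log2 differences ran from -0.07 to -0.04, against -0.08 for the 10 members and 0.0015 for all regions.

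The third comparison was background, KO against WT. Nkx6-2 and Nkx2-2 were called higher in the KO lines and no member lower, 2 of 10 and 0 of 10, against 9.69% of all regions higher and 3.55% lower (1779 and 651 regions; 1676 and 1039 with total counts as library sizes). At Nkx6-2, H3K27me3 in CPM per kb at 48 h and 0 h was 3.35 and 3.40 in KO transgene and 3.77 and 4.06 in the labelled KO control line, against 3.29 and 3.33 in WT transgene and 2.93 and 3.2 in the labelled WT control line. All 4 KO libraries were above all 4 WT libraries, KO transgene by little. Each set of 4 came from 2 lines, and the fit had no term for line, so the times of a line counted as separate libraries. The log2 difference was 0.20 ± 0.05 (SE; edgeR adjusted p = 0.0078).

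At Nkx2-2 the values were 3.84 and 4.0 in KO transgene and 3.94 and 4.47 in the labelled KO control line, against 3.78 and 4.14 in WT transgene and 3.5 and 3.63 in the labelled WT control line. The groups overlapped, and the log2 difference was 0.12 ± 0.04 (edgeR adjusted p = 0.043). Nkx2-5 was at 0.04 ± 0.03 (adjusted p = 0.471) and Nkx2-1 at 0.03 ± 0.03 (adjusted p = 0.611).

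Both background calls rested on the 2 control lines. Between KO transgene and WT transgene, Nkx6-2 differed by 0.04 ± 0.06 (edgeR adjusted p = 0.792) and Nkx2-2 by -0.0053 ± 0.04 (adjusted p = 0.965), and 0 of 10 members were called, against 6.99% of all regions called higher and 2.53% lower. Between the labelled KO control line and the labelled WT control line 4 of 10 were called higher and 0 lower, against 11.6% and 5.54% of all regions: Nkx6-2 by 0.37 ± 0.06, Nkx2-2 by 0.25 ± 0.04, Nkx1-2 by 0.23 ± 0.06 and Nkx2-3 by 0.12 ± 0.03 (adjusted p at most 0.0013). Without either control line only the transgene lines set the background term, so those fits repeat KO transgene against WT transgene and are no further check. Without the labelled KO control line the values were 0.04 ± 0.06 at Nkx6-2 and -0.0058 ± 0.04 at Nkx2-2, and without the labelled WT control line 0.04 ± 0.06 and -0.0047 ± 0.04. No member was called in either fit, against 6.97% and 6.84% of all regions called higher. With 1 library left out, Nkx6-2 was lost without either library of the labelled KO control line or the labelled WT control line at 48 h, and Nkx2-2 without any 1 library of the 2 control lines (edgeR adjusted p up to 0.105 and 0.330). With DESeq2, for which calls over all regions are not given, no member was called, at 0.20 for Nkx6-2 (adjusted p = 0.0788) and 0.12 for Nkx2-2 (adjusted p = 0.255). With input taken out none was called either, at differences as large but with larger SEs, 0.21 ± 0.09 at Nkx6-2 and 0.15 ± 0.07 at Nkx2-2 (edgeR adjusted p = 0.303 and 0.313). Over all regions that model called 136 higher and 75 lower. With the offset that follows enrichment only Nkx6-2 of the 10 was called, at 0.15 ± 0.05 (adjusted p = 0.019), Nkx2-2 was at 0.01 ± 0.03, and all regions gave 1678 calls higher and 1180 lower.

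The fourth comparison set the lines with the transgene against the control lines. With edgeR, DESeq2 and limma-voom alike 0 of 10 members were called higher and 0 lower, against, in edgeR, 0.207% of all regions higher and 1.24% lower. At an unadjusted p under 0.05, 900 regions were higher and 1462 lower, of which Nkx2-5 at 0.07 ± 0.03 (edgeR adjusted p = 0.352) was 1. Without the labelled KO control line, Nkx2-2 at 0.15 ± 0.04 and Nkx2-3 at 0.11 ± 0.03 were called higher (edgeR adjusted p = 0.012 for both), against 1.49% of all regions, and all 10 members were above 0. Without the labelled WT control line 9 of 10 were below 0 and Nkx6-2 was called lower at -0.22 ± 0.06 (adjusted p = 0.0042), against 4.91% of all regions. Each of these fits rests on the same pair of lines as a comparison within a single background below, so the pair counts once. Of the other Nkx genes Nkx1-1 was called higher, at 0.12 ± 0.03 (edgeR adjusted p = 0.020). Within single backgrounds, between WT transgene and the labelled WT control line, Nkx2-2 was higher by 0.15 ± 0.04 and Nkx2-3 by 0.11 ± 0.03 (edgeR adjusted p = 0.0093 and 0.0075), 2 of 10 against 1.68% of all regions higher and 0.871% lower. Between KO transgene and the labelled KO control line Nkx6-2 was lower by a log2 difference of -0.23 ± 0.06 (edgeR adjusted p = 0.0034), 1 of 10 against 5.09% of all regions lower and 1.49% higher.

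The transgene against control difference was compared between the labelled backgrounds, KO minus WT, as an interaction. Nkx6-2 at -0.34 ± 0.08 (SE; edgeR adjusted p = 0.0036), Nkx2-2 at -0.26 ± 0.05 (adjusted p = 0.00019) and Nkx2-3 at -0.15 ± 0.04 (adjusted p = 0.0074) passed the test. These are 3 of 10 members lower and 0 higher, against 3.2% of all regions lower and 0.637% higher. All 10 members were below 0, between -0.08 ± 0.05 at Nkx6-1 and the value of Nkx6-2, but with the offset that follows enrichment 6 of 10 were above 0, and Nkx2-5 was at -0.10 ± 0.05 (adjusted p = 0.353).

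At Nkx2-3 the CPM per kb at 48 h and 0 h were 3.87 and 4.06 in KO transgene and 3.89 and 4.19 in the labelled KO control line, against 4.01 and 4.16 in WT transgene and 3.71 and 3.83 in the labelled WT control line. The labelled WT control line held the lowest value of the 4 lines at each time for Nkx2-3, Nkx2-2 and Nkx6-2 alike. This was not particular to the called genes, since it held also for Nkx2-1, Nkx2-4, Nkx2-5, Nkx2-9 and Nkx6-1. With DESeq2, for which calls over all regions are not given, 0 of 10 were called for the interaction, at -0.34, -0.26 and -0.16 for Nkx6-2, Nkx2-2 and Nkx2-3 (adjusted p at least 0.46). With input taken out 0 of 10 were called, with larger SEs: Nkx6-2 was at -0.38 ± 0.17, Nkx2-2 at -0.17 ± 0.13 and Nkx2-3 at -0.20 ± 0.09 (edgeR adjusted p at least 0.569). Over all regions that model called only 8 lower and 1 higher. With the offset 0 of 10 were called, at -0.23 ± 0.08, -0.07 ± 0.05 and 0.0009 ± 0.04 for the same genes (adjusted p at least 0.163). All regions then gave 263 calls lower and 72 higher. With the labelled KO control library at 0 h left out all 3 calls were lost (edgeR adjusted p = 0.0544 at Nkx2-2, 0.0648 at Nkx6-2 and 0.197 at Nkx2-3). Nkx2-3 was also lost without the labelled WT control line at 0 h or WT transgene at 48 h, and Nkx6-2 without KO transgene at 0 h or either WT library at 48 h. The interaction cannot be fitted without either control line, each being 1 of its 4 arms, and is therefore a difference between 4 single lines.

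**Figure D5:**
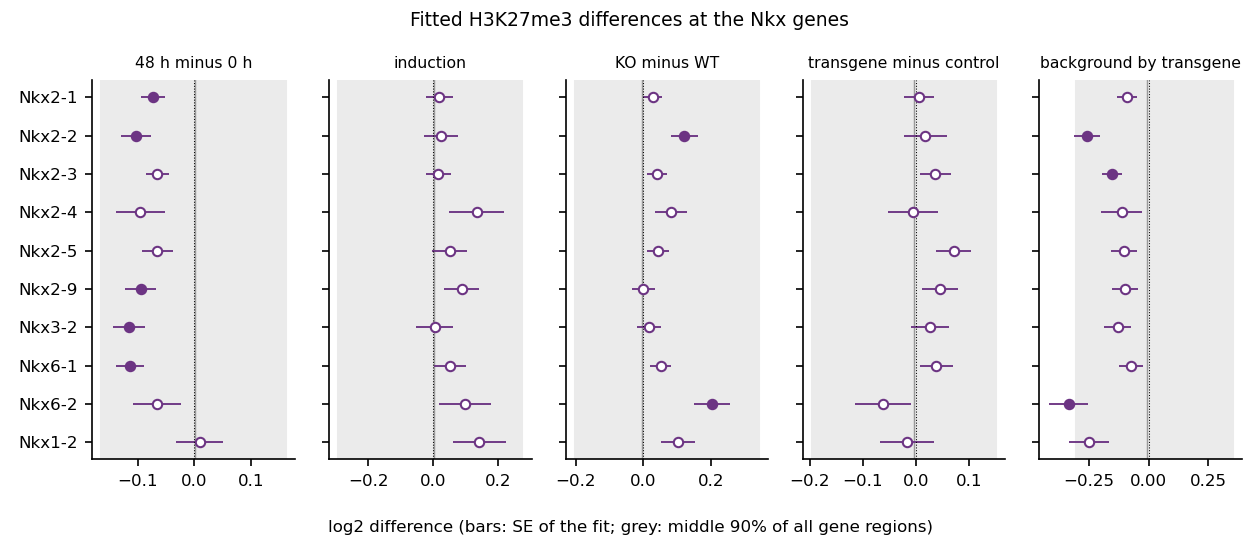
Fitted log2 differences in H3K27me3 (x axes) for each Nkx gene, with the SE of the fit, in 5 comparisons; filled points passed edgeR's test at an adjusted p of 0.05 and the grey band holds the middle 90% of all gene regions. Filled points are 5 for 48 h minus 0 h, 0 for induction, 2 for KO minus WT, 0 for transgene minus control and 3 for background by transgene.

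Over the 8 conditions the 10 members summed were at 1.69 and 1.75-fold over input at 48 h and 0 h in KO transgene, 1.73 and 1.86-fold in the labelled KO control line, 1.70 and 1.76-fold in WT transgene, and 1.57 and 1.70-fold in the labelled WT control line. The value at 48 h was lower in each line. Of 9160 regions above the median input count that share no peak with a member, those most like this sum by Pearson's r over the 8 log2 values were Cyp46a1 (r = 0.990), Hhipl1 (r = 0.968) and the shared region of Exoc3l4, Gm266 and Tnfaip2 (r = 0.960). These r were picked as the highest of 9160, so their size alone does not tie these genes to the Nkx family. They describe 8 conditions that share their libraries and library totals with the members.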

How the data were processed

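The deposited table held raw read counts, 1 whole number for each consensus peak in each library, not normalised by the authors. The deposited peak list gave, per the file headers, a score, a fold enrichment (a linear ratio) and −log10 q-values for each peak; these belong to a peak rather than to a library, and the score was not used. Per the submitters' processing notes, the build was mm10 and the tools were MACS2 2.2.71, DESeq2 1.26.0, featureCounts and BWA 0.7.17-r1188, with no role stated. The libraries behind the peak call are not given in the sources used here. Counts over broad peaks cannot show changes narrower than a peak.

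Counts were summed over the consensus peaks that overlap each protein-coding or lncRNA gene (RefSeq span with 2 kb on either side), which gave 18362 regions for 20257 genes. Each comparison was fitted on all regions with edgeR 4.0.16 (R 4.3.3; quasi-likelihood F test, TMM factors, filterByExpr, Benjamini-Hochberg at 0.05), and each log2 value has the SE of its fit. The over-input test took total counts as library sizes and blocked on condition, and time was fitted beside line. Background and transgene were fitted without a term for line, so the times of a line counted as separate libraries. Residual degrees of freedom were 2 for induction, 3 for time and for background by transgene, 4 for background and for transgene, and 7 for the over-input test. In the fits for induction, time and background by transgene the common dispersion was 9.77e-05, with infinite prior degrees of freedom for time and background by transgene, so their SEs mostly follow read depth. Pairs of lines were compared within the design of the time fit, so the same holds for them. The fits were tested on simulated data. Ratios carry 95% exact binomial intervals (scipy 1.17.1).

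Groups were read from the labels for genotype, antibody and time. All groups carry replicate number 1, which pairs nothing, and 48 h was matched to 0 h by line. The members, gene lists and tests were chosen with earlier results of these data known. Named were all 10 members and the other Nkx genes (1 region is not reported here), up to 3 genes of a list with the largest called change, and the 3 regions most like the summed members. Alternatives were other scalings, filters, windows, DESeq2 1.42.0, limma-voom (limma 3.58.1), input taken out in 1 model, an offset following enrichment, the same contrast in input, pairs of lines and each library left out; single peaks and leaving out the labelled KO or WT control line were added after seeing the data. Exon positions and protein sequences were not analysed here.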

Additional observations from a re-analysis of the deposited data

Results flagged for a closer look

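In 60 sets of 4 libraries (10 genes, by time, background or transgene), 6 held 1 value of H3K27me3 over input far from the other 3, and chance flags about 1 in 20 such sets. At Nkx2-2, KO transgene at 48 h was highest of the 48 h libraries, 2.21-fold against 2.04 to 2.07-fold, and the labelled WT control line at 0 h was lowest of the WT libraries, 1.82-fold against 2.04 to 2.07-fold. At Nkx2-5, the labelled WT control line at 48 h was lowest of the control libraries, 1.54-fold against 1.78 to 1.83-fold. At Nkx2-9, the labelled WT control line at 48 h was lowest of the 48 h libraries, 1.21-fold against 1.31 to 1.33-fold, and the labelled KO control line at 0 h was highest of the 0 h libraries, 1.45-fold against 1.37 to 1.38-fold. At Nkx1-2, the labelled KO control line at 0 h was highest of the KO libraries, 1.63-fold against 1.29 to 1.33-fold.

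The transgene against control difference passed edgeR's test for differing between backgrounds at Nkx6-2 (log2 -0.34), Nkx2-2 (-0.26) and Nkx2-3 (-0.15). This compares 4 single lines, and with the control labels exchanged it would stand for KO against WT. With DESeq2, with input taken out and with the offset 0 members were called. All 3 calls were lost with the labelled KO control library at 0 h left out, and the difference cannot be fitted without either control line, both of which went against their labels at Firre.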

How the results depend on the processing

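All 10 members were called higher than input under each of the 19 alternatives run for that test, 8 of which left out a condition. For induction 0 members were called under every alternative run. For time, the 5 calls lower became 3 on single peaks, 1 without the labelled KO control line, 2 without the labelled WT control line, and 0 with DESeq2, with input taken out, with the enrichment offset, in input alone and without line as block. Leaving out 1 library, in effect its whole line, gave between 1 and 3. For background, the 2 calls higher became 1 with total counts as library sizes and with the offset, and 4 between the labelled KO control line and the labelled WT control line. They became 0 with DESeq2, with input taken out, in input alone and between the transgene lines. The fits without either control line repeat the comparison between the transgene lines and also gave 0. For background, leaving out 1 library gave between 0 and 3. For transgene, 0 calls became 2 higher between WT transgene and the labelled WT control line and without the labelled KO control line, and 1 lower between KO transgene and the labelled KO control line and without the labelled WT control line. In both cases the fit without a control line repeats the pair of lines named before it. For background by transgene, the 3 calls lower became 0 with DESeq2, with input taken out, with the offset and in input alone, and leaving out 1 library gave between 0 and 4. The causes were not tested.

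Among called results, values with the opposite sign were, for time in input alone, 0.0153 at Nkx2-9 and 0.0706 at Nkx6-1. For background they were -0.0311 at Nkx2-2 and -0.0102 at Nkx6-2 in input alone, -0.0053 at Nkx2-2 between the transgene lines and -0.0058 and -0.0047 without the labelled KO and WT control lines, which repeat that comparison. For background by transgene they were 0.0009 at Nkx2-3 with the offset, and in input alone 0.051 at Nkx2-3 and 0.0437 at Nkx6-2. Over all regions, time gave 273 calls lower and 87 higher, against 4 and 1 with input taken out, and background 1779 higher and 651 lower, against 136 and 75. Background by transgene gave 588 lower and 117 higher, against 8 and 1. Calls were thus lost across all regions and not at the members alone. No paired analysis was possible because the replicate number is 1 in every group; pairing by line was part of the time comparison, whose 5 calls became 0 without it. Depth in input, lowest in the labelled KO control line at 0 h, limits each ratio over input.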

Other observations

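Markers of other cell types carried H3K27me3 too, which describes where the mark lies and not which cells were present. Called higher than input were 5 of 7 fibroblast regions, led by Twist1 (log2 0.68 ± 0.03), 6 of 8 primitive endoderm regions, led by Gata6 (0.78 ± 0.03), 5 of 7 trophoblast regions, led by Gata3 (0.96 ± 0.03), and 7 of 8 primed epiblast regions, led by Otx2 (0.69 ± 0.03). In the same order of lists 0, 2, 1 and 1 regions were called lower than input. Of all gene regions 28.7% were called higher than input and 37.5% lower. At 48 h against 0 h, 0, 1, 2 and 2 regions of these lists were lower, in the same order, and none was called higher. Of all regions 1.49% were lower and 0.474% higher at 48 h. Trophoblast Tfap2c, at -0.26 ± 0.06, had the largest of these time differences (SE; edgeR's quasi-likelihood test, adjusted p = 0.00101).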
